A study of Mus musculus with 3 samples.

Results

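Interferon-induced effector genes were examined in late carcinomas and adenomas of a mouse mammary tumour transplant model. The group was set by name and holds 9 genes: Stat2, Isg15, Ifit1, Ifit2, Ifit3, Ifih1, Mx1, Oasl2 and Usp18. Rows of the array were taken where the platform's gene table gave one of these symbols, which found 8 of the 9 genes among 15056 named genes. Ifit3 had 3 rows and the other 7 genes had 1 row each, so 10 rows were used. Mx1 had no row under its symbol or its gene identifier, and it was not analysed here.

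Tumours in the model arise from the polyoma middle T antigen, an oncogene expressed under the MMTV promoter, which is active mainly in mammary epithelium. Donors were pubertal MMTV-PyMT mice that also carried a B-actin-GFP transgene, and a single hyperplasia from such a mouse was grafted into a host of the same strain. Outgrowths were taken as late carcinomas at 18 weeks or as adenomas at 5 weeks, so stage and time after grafting cannot be told apart. Both stages carry the same oncogene, and no normal mammary gland was compared. Each of 3 two-colour arrays set total RNA of a late carcinoma (Cy3) against total RNA of an adenoma (Cy5). The dye orientation was the same throughout, so stage and dye cannot be told apart. Whether the arrays hold RNA of separate tumours is not stated in the labels, so the p-values measure the spread between these arrays alone, which may be technical. RNA came from whole outgrowths, in which fewer cells of a type and less RNA per cell cannot be told apart.

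Type I interferons bind a receptor whose kinases, JAK1 and TYK2, phosphorylate STAT2. STAT2 acts with IRF9 in a complex that binds the interferon-stimulated response element (ISRE), a repeat of the letters TTTC or GAAA, in front of antiviral genes. In tumours these genes are known as a readout of interferon made by tumour, stromal or immune cells, and several of them feed back on sensing or signalling.

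The ISRE letters were looked up in the promoters that RefSeq annotates for these genes, to show which members carry these letters near their start. A match shows the letters alone, and whether they are bound or act as a response element was not tested. A window of 250 bases before to 50 bases after the transcript start (build GRCm38.p6) was listed for 7 of the 9 genes, with 2 starts for Ifit2 and none for Mx1 or Usp18. The core was searched as TTTCNNTTTC on the plus strand of the gene and as its reverse complement GAAANNGAAA. Such a match was present in 3.44% of all 32851 promoter windows in the table and in windows of 5 of the 7 members. The stretches that hold the matches are given with 20 bases on each side where the window allows, 5′ to 3′ along the gene, with the matched bases in capitals.
Ifih1, chr2:62646206-62646243, - strand: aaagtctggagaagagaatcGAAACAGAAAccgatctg
Isg15, chr4:156200855-156200916, - strand: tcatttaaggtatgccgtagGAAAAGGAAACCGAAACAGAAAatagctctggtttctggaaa
Ifit3, chr19:34583353-34583436, + strand: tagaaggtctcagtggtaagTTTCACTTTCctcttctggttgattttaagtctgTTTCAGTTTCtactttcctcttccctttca
Ifit1, chr19:34640765-34640833, + strand: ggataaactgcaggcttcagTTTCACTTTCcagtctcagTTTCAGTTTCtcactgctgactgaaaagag
Stat2, chr10:128270256-128270305, + strand: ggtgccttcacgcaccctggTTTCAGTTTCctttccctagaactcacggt

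Isg15 held 3 matches, each overlapping the next, the first beginning at position -78 from the start and the last ending at -57. Ifit1 held 2 matches, beginning at -104 and -85, and Ifit3 held 2, beginning at -156 and -122. Stat2 held 1 match, beginning at -222. The match of Ifih1 lay downstream of the annotated start, from base 33 to base 42. The core of the element bound by STAT dimers after interferon gamma (GAS, searched as TTCNNNGAA, which is its own reverse complement) was found in 8.3% of all windows and in 1 of the 8 member windows, that of the first Ifit2 start. Oasl2 and the starts of Ifit2 held no ISRE core in these windows, which says only that these letters are not there. The whole windows of Ifih1 and Oasl2 are shown because these are the members whose ratios passed the test described next.
Ifih1, chr2:62646206-62646505, - strand: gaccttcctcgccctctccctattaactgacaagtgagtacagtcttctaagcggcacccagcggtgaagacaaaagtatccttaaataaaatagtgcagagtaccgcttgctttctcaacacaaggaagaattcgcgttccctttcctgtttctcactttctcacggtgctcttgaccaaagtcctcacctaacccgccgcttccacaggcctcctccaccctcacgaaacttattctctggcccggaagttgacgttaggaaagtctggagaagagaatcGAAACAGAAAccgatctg
Oasl2, chr5:114896684-114896983, + strand: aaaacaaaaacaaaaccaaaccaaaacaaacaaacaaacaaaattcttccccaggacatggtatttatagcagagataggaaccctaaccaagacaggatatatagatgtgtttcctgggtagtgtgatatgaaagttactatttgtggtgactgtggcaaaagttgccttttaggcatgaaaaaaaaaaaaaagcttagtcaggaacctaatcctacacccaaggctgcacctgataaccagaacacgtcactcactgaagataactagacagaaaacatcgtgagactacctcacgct

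**Figure D1:**
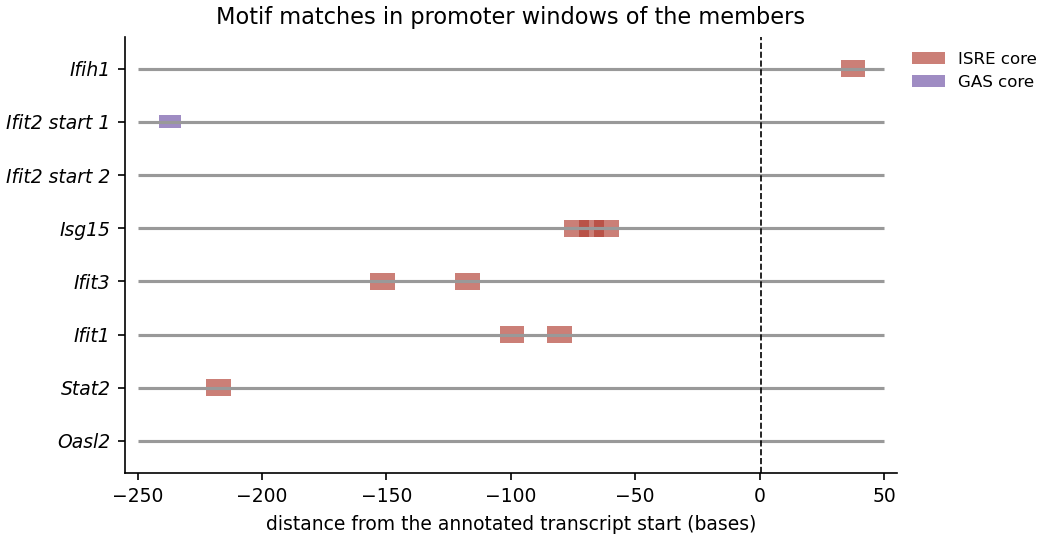
Positions of motif matches in RefSeq promoter windows of 7 interferon-induced effector genes. The horizontal axis is the distance in bases from the annotated transcript start (dashed line), each grey line is 1 window of 300 bases, red boxes are ISRE core matches and the purple box is the GAS core match; the Ifih1 match lies after the start, while those of Isg15, Ifit3, Ifit1 and Stat2 lie before it.

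The comparison asked whether these transcripts differ between late carcinomas and adenomas. The values are log ratios, read as log2 of adenoma (Cy5) over late carcinoma (Cy3). A negative value is therefore likely higher in late carcinomas and a positive one likely higher in adenomas. Numerator and log base are not stated, so the reading follows the labelled dyes and common practice. With late carcinoma as the numerator, each sign given here would change. The members did not share a single direction. Oasl2 was likely higher in late carcinomas, Ifih1 was likely lower there, and the remaining 6 did not pass the test, with small ratios that for 5 of them were negative on every array.

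By limma's moderated test of the mean ratio against 0, with Benjamini-Hochberg adjustment over 31058 genes and unnamed rows, 2 of the 8 members passed an adjusted p of 0.05. Of everything tested, 25.1% passed, 15.9% above 0 and 9.21% below 0. The members' count of 1 above 0 and 1 below 0 is thus near that background and is not a result about the group. A further member, Stat2, had an unadjusted limma p under 0.05. That made 3 of the 8 members, against 12545 of the 31058 genes and unnamed rows, so it is not a result about the group either. The median of the 8 means was -0.22, against -0.027 over all 15055 named genes measured on 3 arrays. With the rows of a gene averaged, 6 of the 8 members were below 0 on all 3 arrays, as were 32.1% of all named genes. Row 1 of Ifit3 alone was above 0 on array 1 (0.17).

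**Figure D2:**
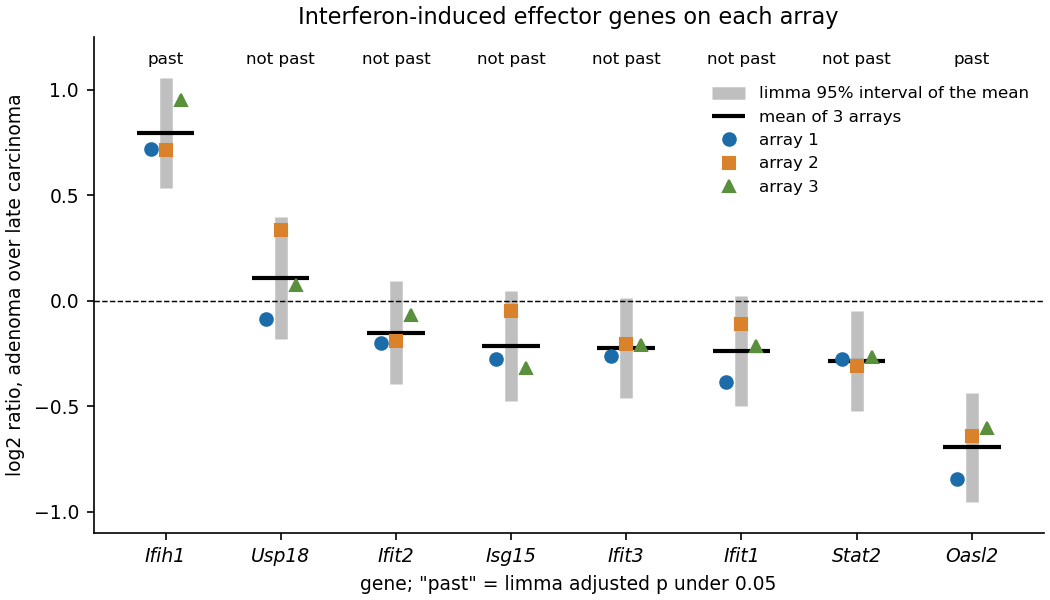
Log2 ratio of adenoma over late carcinoma (vertical axis) for 8 interferon-induced effector genes on each of 3 arrays. Coloured points are arrays, black lines are means, grey bars are limma's 95% intervals and the dashed line is 0; Ifih1 lies above 0 at 0.79, Oasl2 lies lowest at -0.70, and the intervals of 5 of the other genes include 0, while that of Stat2 ends at -0.047.

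Ifih1 encodes MDA5, a cytosolic helicase that recognises long double-stranded RNA and starts interferon production. Its log2 ratio was 0.72 on array 1, 0.71 on array 2 and 0.95 on array 3. All arrays were above 0 and were close to each other. The mean was 0.79 ± 0.14 (SD, n = 3), a ratio of 1.73-fold with a 95% interval of 0.53 to 1.05 on the log2 scale, and limma's adjusted p was 0.0117. A higher mean was found for 5.11% of named genes.

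The other cytosolic RNA sensors that were measured did not share this value. Ddx58, which encodes RIG-I, had a mean of -0.19 ± 0.24 and its regulator Dhx58 had 0.084 ± 0.15. Mavs, the mitochondrial adaptor through which MDA5 and RIG-I signal, had 0.063 ± 0.057. None of these 3 genes passed (limma adjusted p = 0.291, 0.601 and 0.673). Tlr3, the endosomal receptor for double-stranded RNA, had 0.86 ± 0.24 (adjusted p = 0.0118) and was the pathway gene closest to Ifih1 across the 3 arrays. Its Euclidean distance to Ifih1 was 0.233 over 3 log2 ratios, the smallest among 105 pathway genes and members, and Ifi47 and Trim30a followed at 0.422 and 0.504.

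Oasl2 belongs to the oligoadenylate synthetase-like proteins, which pair a synthetase-related domain with ubiquitin-like repeats. Its log2 ratio was -0.85, -0.64 and -0.60 on arrays 1, 2 and 3. All arrays lay below 0, and their range did not overlap that of any other member. The mean was -0.70 ± 0.13 (n = 3), or 1.62-fold on the late carcinoma side, with a 95% interval of -0.95 to -0.44 and a limma adjusted p of 0.0118. Only 1.85% of named genes had a lower mean.

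Several relatives of Oasl2 were measured with it. Oasl1, the other gene of the same subfamily, had a mean of -0.43 ± 0.068 (adjusted p = 0.0274), and the synthetase gene Oas3 had -0.38 ± 0.14 (adjusted p = 0.0457). Oas1a (-0.29 ± 0.20), Oas1c (-0.32 ± 0.32), Oas1g (-0.31 ± 0.077) and Oas2 (-0.27 ± 0.47) did not pass. Genes of this family are similar in sequence, and cross-hybridisation between their probes was not tested. Among 105 pathway genes and members, the smallest distances to Oasl2 over the 3 arrays were those of Trex1 (0.316), Isg20 (0.372) and Parp9 (0.444). Trex1 encodes the exonuclease that removes cytosolic DNA, and Isg20 an interferon-induced exonuclease. Genes outside these lists were not searched.

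Stat2 is the signalling member of the group and brings an activating domain to the complex it forms with IRF9. Its log2 ratios were -0.28, -0.31 and -0.27 on arrays 1, 2 and 3. The spread of 0.024 (SD) was smaller than that of all but 1.39% of named genes, and the mean was -0.29, or 1.22-fold on the late carcinoma side. The 95% interval ran from -0.52 to -0.047, and the adjusted p of 0.0788 did not pass; limma's test draws a gene's spread towards that of the whole table. Stat2 passed below 0 with array weights (-0.28, adjusted p = 0.0414) and with a running median of 29 rows subtracted (-0.44, adjusted p = 0.0260). It also passed with centring on smell receptor genes, for which the values are given with that setting. Array weights gave 12036 calls in the whole table and the running median 6930, against 7809 in the main fit.

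The measured partners of Stat2 differed among themselves. Irf9 had a mean of -0.051 ± 0.29 (adjusted p = 0.807), with arrays on both sides of 0. Tyk2 had -0.17 ± 0.078 (adjusted p = 0.271), while Jak1 had 0.86 ± 0.38 and passed above 0 (adjusted p = 0.0146). The receptor genes Ifnar1 and Ifnar2 had -0.0013 ± 0.16 and 0.089 ± 0.37 and did not pass.

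Isg15 encodes a ubiquitin-like protein that is joined to other proteins after interferon, and Usp18 encodes the protease that removes it and also blocks the interferon receptor. Isg15 had log2 ratios of -0.28, -0.051 and -0.32 on arrays 1, 2 and 3. All were below 0, the one of array 2 close to it, and the mean of -0.22 ± 0.14 did not pass (limma adjusted p = 0.190, 95% interval -0.48 to 0.047). Usp18 had -0.087, 0.33 and 0.076. It was the only member with arrays on both sides of 0, and its mean of 0.11 ± 0.21 did not pass (adjusted p = 0.538, 95% interval -0.18 to 0.40).

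The enzymes that attach Isg15 were measured in part. Uba7, the activating enzyme, had -0.34, -1.41 and -0.98 on the 3 arrays, all below 0, and a mean of -0.91 ± 0.54 that passed (adjusted p = 0.0215). Ube2l6, the conjugating enzyme, had a mean of -0.22 ± 0.11 and did not pass (adjusted p = 0.168). Isg15 and the 2 measured enzyme genes, of 4 listed, lay below 0 on all arrays, as did 32.1% of all named genes. Usp18 did not, and among these genes Uba7 alone passed.

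Ifit1, Ifit2 and Ifit3 encode tetratricopeptide repeat proteins that bind viral RNA or one another, and the genes lie together on mouse chromosome 19. Ifit1 had log2 ratios of -0.39, -0.11 and -0.21 on arrays 1, 2 and 3, with a mean of -0.24 ± 0.14. Ifit2 had -0.20, -0.19 and -0.066, with a mean of -0.15 ± 0.075. Ifit3 had -0.26, -0.20 and -0.21 as the average of its rows, with a mean of -0.22 ± 0.032. With the Ifit3 rows averaged, every value of the 3 genes was below 0, and none of the means passed (limma adjusted p = 0.153, 0.306 and 0.143). The lower ends of the 95% intervals were -0.50, -0.40 and -0.46, so differences of up to about those sizes are not excluded by the test.

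The rows of Ifit3 agreed less well than their average appears to show. Row 1 had 0.17, -0.11 and -0.28 on the 3 arrays, row 2 had -0.49, -0.39 and -0.14, and row 3 had -0.47, -0.12 and -0.20. The row means were -0.071, -0.34 and -0.26, and the SDs of single rows, 0.18 to 0.23, were far above the SD of 0.032 of the average. Mouse Ifit3 has a close copy, Ifit3b, and the rows may measure both.

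Ordered by mean from the adenoma side, the members ran Ifih1, Usp18, Ifit2, Isg15, Ifit3, Ifit1, Stat2 and Oasl2. The ranges over arrays overlapped for 5 of the 7 neighbouring pairs, so neighbours from Usp18 to Stat2 were not separated. Members farther apart in that stretch were in part: the range of Usp18 did not overlap those of Ifit3, Ifit1 or Stat2, that of Ifit2 did not overlap those of Ifit3 or Stat2, and that of Ifit3 did not overlap that of Stat2. The range of Ifit3 is that of the average of its 3 rows. Row 1 of Ifit3 alone ran from -0.28 to 0.17, which overlaps the ranges of Usp18, Ifit2 and Stat2. Among neighbours, ranges did not overlap between Ifih1 and Usp18, whose difference was 0.80, 0.38 and 0.88 on the 3 arrays, or between Stat2 and Oasl2, with 0.57, 0.33 and 0.34. The SD over arrays ran from 0.024 to 0.21 among the members with a median of 0.13, against a median of 0.17 over all named genes.

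Smell and pheromone receptor genes (olfactory and vomeronasal), best known from sensory neurons, show how far the ratios of another gene family spread on these arrays. Their 979 means lay between -0.88 and 1.33 around a median of 0.34. All 8 members were inside that range, but it is wide enough to hold most named genes, so this is not a result about them. By the same limma test 46.2% of these receptor genes passed, 43.5% above 0 and 2.66% below 0, so on these arrays a call above 0, such as that of Ifih1, was more frequent in this family than among everything tested. A mean above that of Ifih1 was found for 16.9% of the receptor genes, and a mean below that of Oasl2 for 0.102% of them. With each array centred on these genes, 7 of the 8 members passed, 1 above 0 and 6 below 0, but so did 19138 of the 31058 genes and rows tested, 16861 of them below 0. Under that centring Ifih1 kept a mean of 0.44, Oasl2 had -1.05, Stat2 had -0.64 (adjusted p = 0.00456), Isg15 had -0.57, and Usp18 turned to -0.24 without passing.

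**Figure D3:**
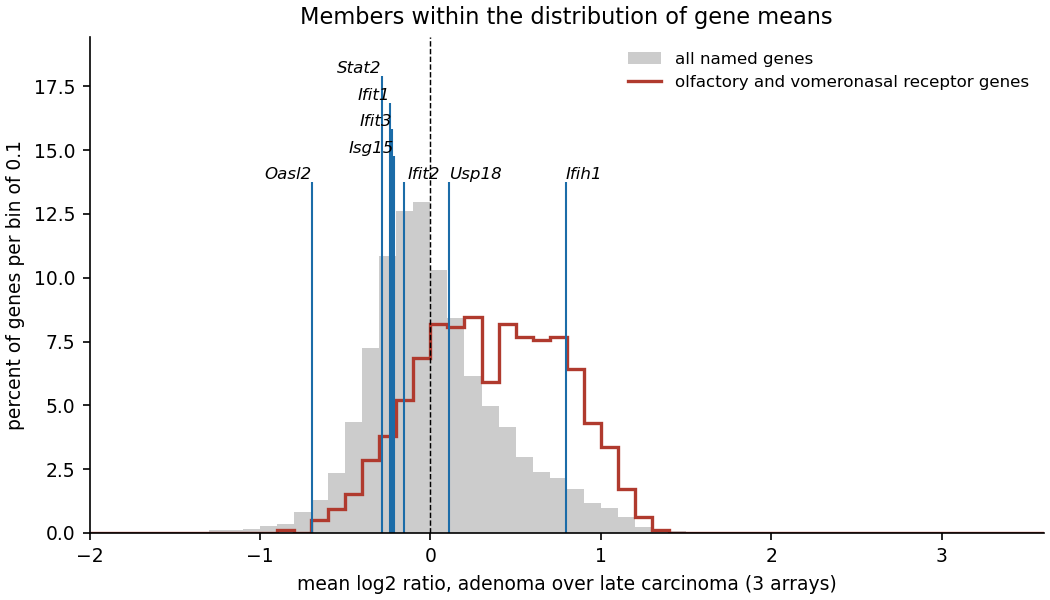
Distribution of mean log2 ratios of adenoma over late carcinoma (horizontal axis, mean of 3 arrays) for all named genes (grey) and for 979 olfactory and vomeronasal receptor genes (red outline), as percent of genes per bin of 0.1 (vertical axis). Blue lines mark the 8 interferon-induced effector genes, of which 5 lie between -0.29 and -0.15, inside the bulk of the named genes.

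Across the rest of the interferon pathway the pattern was likewise mixed. Of 98 measured genes in 6 lists by role, 8 passed above 0 and 14 below 0, and 62 means were below 0. The median of the 98 means was -0.17. By share, 22.4% of these genes passed, against 25.1% of everything tested. By direction, 8.16% passed above 0 and 14.3% below 0, against 15.9% and 9.21% of everything tested. Means below 0 made up 63.3% of the pathway genes and 53.4% of all named genes.

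Among the interferon ligand genes, 0 of 20 passed above 0 and 4 below 0, with a median of -0.25. The genes that passed were Ifna1 (-0.41 ± 0.064), Ifna6 (-0.48 ± 0.22), Ifnab (-0.40 ± 0.14) and the lambda interferon gene Ifnl3 (-0.40 ± 0.13), and Ifnb1, the interferon beta gene, had -0.37 ± 0.27 (adjusted p = 0.0816). Ifna genes are near copies of one another, so their rows cannot be read as independent. Of 13 receptor and signalling genes, Jak1 alone passed.

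Of 8 interferon regulatory factor genes, 1 passed on each side. Irf7, which amplifies type I interferon production, had -1.62, -0.70 and -1.46 on the 3 arrays (mean -1.26 ± 0.49, adjusted p = 0.0118), and Irf2, which can repress interferon-induced genes, had 1.77, 0.64 and 1.39 (mean 1.27 ± 0.57, adjusted p = 0.0123). Both means lay farther from 0 than that of every effector gene, though on array 2 both values were closer to 0 than that of Ifih1. Of 11 nucleic acid sensing genes, Tlr3 passed above 0 and the DNA receptor gene Tlr9 (-0.47 ± 0.090) below 0.

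Other interferon-induced genes numbered 44, with 5 past the threshold above 0, 7 below 0 and a median of -0.18. Above 0 were Dtx3l (0.99 ± 0.41), Ifi204 (0.90 ± 0.57), Ifi47 (0.59 ± 0.12), Trim30a (0.51 ± 0.13) and Ifi205 (0.43 ± 0.092). Below 0 were Isg20 (-0.77 ± 0.35), Tap1 (-0.68 ± 0.49), Trex1 (-0.58 ± 0.053), Parp9 (-0.56 ± 0.16), Plscr1 (-0.45 ± 0.25), Oasl1 and Oas3. DTX3L and PARP9 are known to act as one complex, and their genes lay on opposite sides of 0. 

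**Figure D4:**
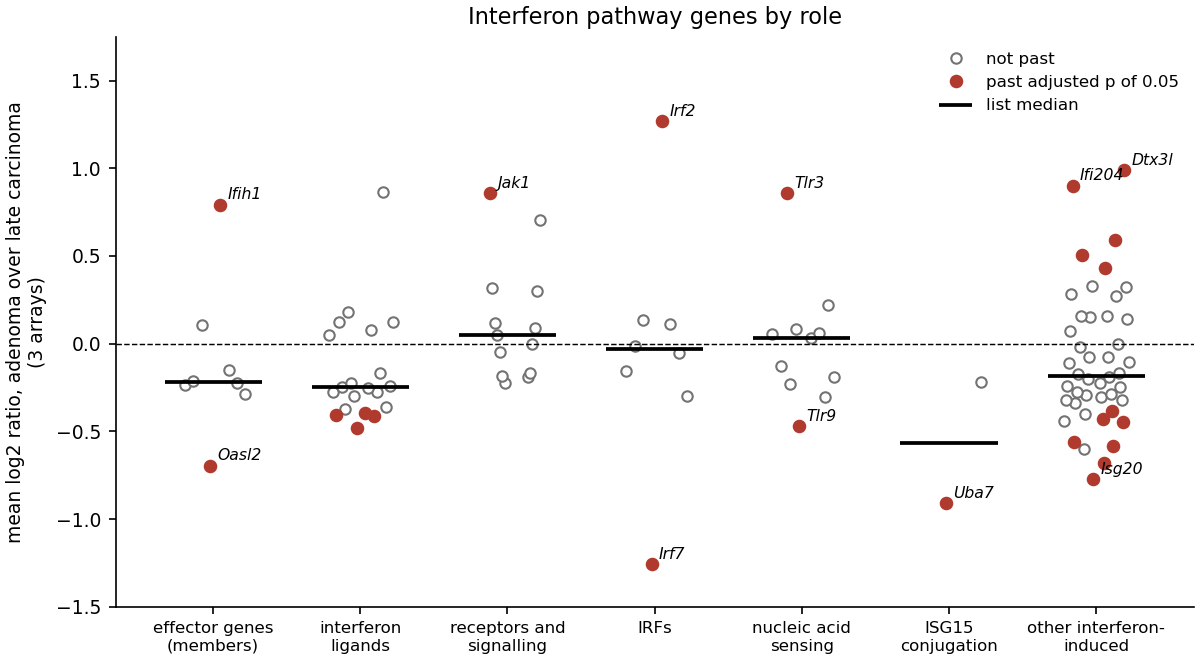
Mean log2 ratio of adenoma over late carcinoma (vertical axis, mean of 3 arrays) for genes of the interferon pathway grouped by role. Each point is a gene, red where limma's adjusted p is under 0.05, and black lines are list medians; red points lie on both sides of 0 among the effector genes, the interferon regulatory factors, the sensing genes and the other interferon-induced genes.

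Ratios carry no level, so whether mammary or immune markers are present could not be checked, only how they differ. Of 9 mammary epithelial markers, 3 passed above 0 and 1 below 0 (medians of -0.17, 0.12 and 0.19 on the 3 arrays), led by Krt19 (-1.16) and Elf5 (0.67). Of 8 macrophage markers, 1 passed above 0 and 2 below 0 (medians of -0.51, -0.092 and -0.16), led by Itgam (-1.09) and Adgre1 (0.50). Of 9 T and NK cell markers, 3 passed above 0 and 0 below 0 (medians of 0.27, 0.18 and -0.054), led by Ncr1 (0.94) and Gzmb (0.84). The means of this list were on both sides, 6 above 0 and 3 below 0, with the lowest at -0.28. Of everything tested, 15.9% passed above 0. None of 5 general leukocyte markers and none of 6 plasmacytoid dendritic cell markers passed, the farthest from 0 being Rac2 (-0.62) and Ptprc (0.32) in the first list and Bst2 (-0.60), itself induced by interferon, and Siglech (0.30) in the second. The part of these cell types in the members' ratios was not tested.

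The calls of Ifih1 and Oasl2, like nearly all calls in the table, were lost when array 3 was left out. Without array 3 their means were 0.71 and -0.74, neither passed (limma adjusted p = 0.114 for each), and 1 of the 31058 genes and rows passed, although 7758 had an unadjusted p under 0.05. Without array 1 or array 2 both genes passed.

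**Figure D5:**
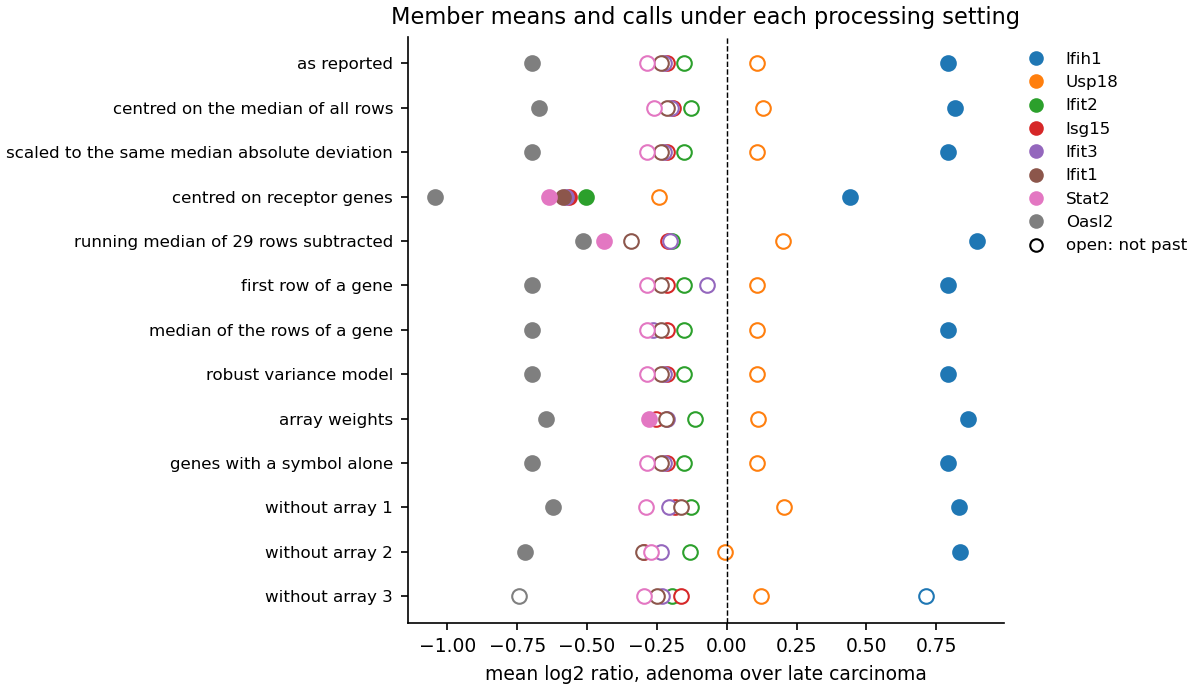
Mean log2 ratio of adenoma over late carcinoma (horizontal axis) of the 8 effector genes under the processing settings (rows). The setting with every array row as its own unit is not drawn. Filled points passed an adjusted p of 0.05 and open points did not; Ifih1 stays above 0 and Oasl2 stays lowest in every row, while centring on smell receptor genes moves all members towards the late carcinoma side.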

How the data were processed

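Each of 3 two-colour arrays compared total RNA of a late carcinoma (Cy3) and an adenoma (Cy5), per the labels. The deposited values are log2 ratios, a reading from the values and convention; the sources used here do not give the scanner, the background correction or the normalization. The table held 38976 rows with array medians of -0.012, -0.025 and -0.033; 1 value was missing, and no intensities were used, so the number of arrays limits the precision. Pearson's r between arrays was 0.610 to 0.744 across genes, which are not independent replicates.

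The platform's gene table named 22973 rows, all matched by identifier to GRCm38.p6 genes; 16003 rows stayed unnamed. Rows of a gene were averaged, and 31058 units entered an intercept-only lmFit followed by eBayes (limma 3.58.1, R 4.3.3), tested on both sides at a Benjamini-Hochberg adjusted p under 0.05. With 1 dye orientation, no dye term could be fitted. Members and lists were chosen with earlier results of these data known. All measured members were named; other genes were named if past the threshold, if among the 3 nearest to a called member, or, where a list had none past it, for the 2 largest means; of each marker list the 2 genes farthest from 0 were named. Ddx58, Dhx58, Mavs, Irf9, Tyk2, Ifnar1, Ifnar2, Ube2l6, Ifnb1, Oas1a, Oas1c, Oas1g and Oas2 were named after their values were seen, as relatives or partners of members. Alternatives were other centrings, scaling, other ways to combine rows, a robust variance model, array weights, named genes alone and leaving out each array. The fit was tested on simulated data. Python 3.11.15 and matplotlib 3.10.9 drew the figures.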

Additional observations from a re-analysis of the deposited data

How the results depend on the processing

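Direction and side of the threshold held for Ifih1 and Oasl2 under 12 of 13 alternatives each, with means of 0.44 to 0.90 and -1.05 to -0.51, the exception being the fit without array 3 (0.71 and -0.74). Both genes have 1 row, so other ways to combine rows could not change their ratios. The robust variance model and named genes alone also left their means as they were, so these alternatives say little about the ratios. Leaving out 1 array at a time gave 1 to 7324 calls in all, 0 to 2 among the members and 0 to 27 among the pathway genes, against 7809, 2 and 22 with all arrays. The fall to 1 call occurred without array 3, while the fits without array 1 or array 2 gave 7324 and 6997. Means without 1 array ran from 0.71 to 0.83 for Ifih1, -0.74 to -0.62 for Oasl2, -0.29 to -0.27 for Stat2 and -0.0055 to 0.21 for Usp18, whose mean turned to -0.0055 without array 2. With centring on the olfactory and vomeronasal receptor genes, which takes 0.41, 0.28 and 0.37 off the arrays, the calls became 19138 in all, 7 among the members and 68 among the pathway genes (5 above 0, 63 below); Usp18 turned to -0.24, and Stat2 (-0.64), Isg15 (-0.57), Ifit1 (-0.59), Ifit2 (-0.50) and Ifit3 (-0.57) passed. Stat2 also passed with the running median (-0.44) and with array weights (-0.28). Array weights, which weight array 3 most, gave 12036 calls in all and 39 in the pathway lists, and every row as its own unit gave 35 there. Named genes alone gave 4274 calls, with fewer units tested. Median centring moved the pathway split from 8 above and 14 below 0 to 9 and 12, and the running median to 8 and 7. Causes were not tested unless given. No paired analysis was possible because each array is itself a ratio of both stages and the arrays form 1 group.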
